A study of Homo sapiens with 36 samples.

Results

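Interferon response genes were examined in TC32 cells, a Ewing sarcoma cell line, after silencing of SUPT6H, SF3B1 or HNRNPH1. The set was a list of 48 genes known to be induced by interferon or to act in the interferon response. It was chosen by gene name, with earlier results of these data already known. A member was measured where 1 of its probes had a detection p below 0.01 on at least 3 of the 36 Illumina bead arrays. That left 43 members, read by 56 probes, among 11437 genes measured in all. DDX58, which encodes the RNA sensor RIG-I, was detected on at most 2 arrays, as were OAS2 and OASL, and IFI44 was detected on 0 arrays. STAT2 was not analysed here.

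All groups were TC32 cells collected 48 h after siRNA transfection, with a labelled dose of 20 nM. The Untreated group carries the same dose label and was taken as untransfected from its name and the treatment text. There were 3 arrays in each of 12 groups. These were Untreated, siNeg set 1 and siNeg set 2 (a negative control siRNA, replicates 1 to 3 and 4 to 6), and 3 siRNAs for each target: siSUPT6H_A1, siSUPT6H_A3 and siSUPT6H_Q3 for SUPT6H, siSF3B1_A2, siSF3B1_A3 and siSF3B1_Q3 for SF3B1, and siHNRNPH1_A2, siHNRNPH1_A3 and siHNRNPH1_Q3 for HNRNPH1. No label names a run. The arrays fell into 2 parts by the median of their values in the authors' normalized table, and these parts are called runs here. They were siNeg set 1, Untreated, siSUPT6H and siSF3B1 with 24 arrays, and siNeg set 2 with siHNRNPH1 with 12 arrays. Each target was therefore compared with the siNeg set of its own run, so siSUPT6H and siSF3B1 shared their 3 control arrays. All results come from 1 cell line. No label says that arrays of a group came from separate cultures, so the p-values measure only the spread between these arrays, which may be technical.

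Interferons bind cell surface receptors, and the kinases JAK1 and TYK2 then activate STAT proteins. The complex of STATs with IRF9 binds the interferon-stimulated response element (ISRE) in the promoters of target genes, and STAT dimers bind the gamma-activated site (GAS). IRF1, IRF3 and IRF7 are further transcription factors of the response, and IRF3 and IRF7 act downstream of sensors of foreign nucleic acid. Because double-stranded RNA is a trigger of these sensors, the response is a known side effect of siRNA delivery. SUPT6H is a histone chaperone that travels with elongating RNA polymerase II, SF3B1 is a core protein of the U2 snRNP that recognises branch points, and HNRNPH1 is an RNA-binding protein that regulates splicing.

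The promoters of the members carry the letters of the ISRE far more often than promoters at large. RefSeq promoters (GRCh38.p14, 250 bases before to 50 bases after the start site) matched 34 of the 48 members and 31 of the 43 measured ones. The letters of the ISRE core (GAAA, any 2 bases, then GAAA), on either strand, was present in 20 of these 31 promoters (64.5%) and in 996 of all 27305 promoters (3.65%). The GAS letters TTCNNNGAA, which read the same on both strands and may overlap an ISRE match, were present in 8 of 31 (25.8%) and in 7.88% of all promoters. The members are known interferon targets, so this share describes the list and is no result of the silencing. Windows of 30 bases are shown for members whose arrays are described in full, with the match in capitals. They come from chr1:27672288-27672317 (minus strand) for IFI6, chr1:1013380-1013409 (plus strand) for ISG15, chr1:89065316-89065345 (minus strand) for GBP1, chr10:89392510-89392539 (plus strand) for IFIT1 and chr15:88638937-88638966 (plus strand) for ISG20. The GAS letters of IRF1 come from chr5:132490878-132490907 (minus strand). The matches start at -115, -107, -127, -103, -69 and -124 from the start site, in that order. The promoter of IFI6 holds 3 matches and those of ISG15 and IFIT1 hold 2 each, of which 1 is shown.
IFI6: ggagagagggGAAAATGAAActgcagagtg
ISG15: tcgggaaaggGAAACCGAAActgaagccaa
GBP1: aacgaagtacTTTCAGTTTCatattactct
IFIT1: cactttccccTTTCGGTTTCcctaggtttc
ISG20: taacaaactaGAAACTGAAAcagggtcggg
IRF1: acagcctgatTTCCCCGAAatgacggcacg

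The targeted mRNAs were lower with their own siRNAs. SUPT6H was at 29.3% of siNeg with siSUPT6H (95% interval 24.9 to 34.5%), SF3B1 at 40.9% with siSF3B1 (36.1 to 46.3%) and HNRNPH1 at 39.2% with siHNRNPH1 (34.4 to 44.8%). SUPT6H mRNA was also lower with siSF3B1 (log2 difference -1.14) and with siHNRNPH1 (-0.78), and HNRNPH1 mRNA was lower with siSUPT6H (-0.59). Between 13106 and 16788 probes were detected per array, with 13106 to 14853 on the siSF3B1 arrays against 15412 to 16295 on those of siNeg set 1. Arrays of a group correlated at 0.989 to 0.995. The number of arrays limits the precision.

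The members did not move together under any of the 3 targets. Calls rest on limma p-values adjusted by Benjamini-Hochberg over all 11437 genes, with 0.05 as the limit, and differences are on the log2 scale of normalized intensity. With siSUPT6H 20 of 43 members were called, 12 higher and 8 lower, while 47.4% of all genes were called (25.7% higher and 21.8% lower). With siSF3B1 27 members were called, 11 higher and 16 lower, against 61.9% of all genes (26.2% higher and 35.7% lower). With siHNRNPH1 23 members were called, against 45.1% of all genes. Of these, 16 were higher, which is 37.2% of the members against 21.6% of all genes, and 7 were lower, 16.3% against 23.5%. The median difference of the members was -0.01 with siSUPT6H, -0.05 with siSF3B1 and 0.15 with siHNRNPH1, beside 0.03, -0.06 and -0.02 for all genes. The plot of shares called shows that siHNRNPH1 had the widest gap between members and all genes, on the side of higher levels.

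**Figure D1:**
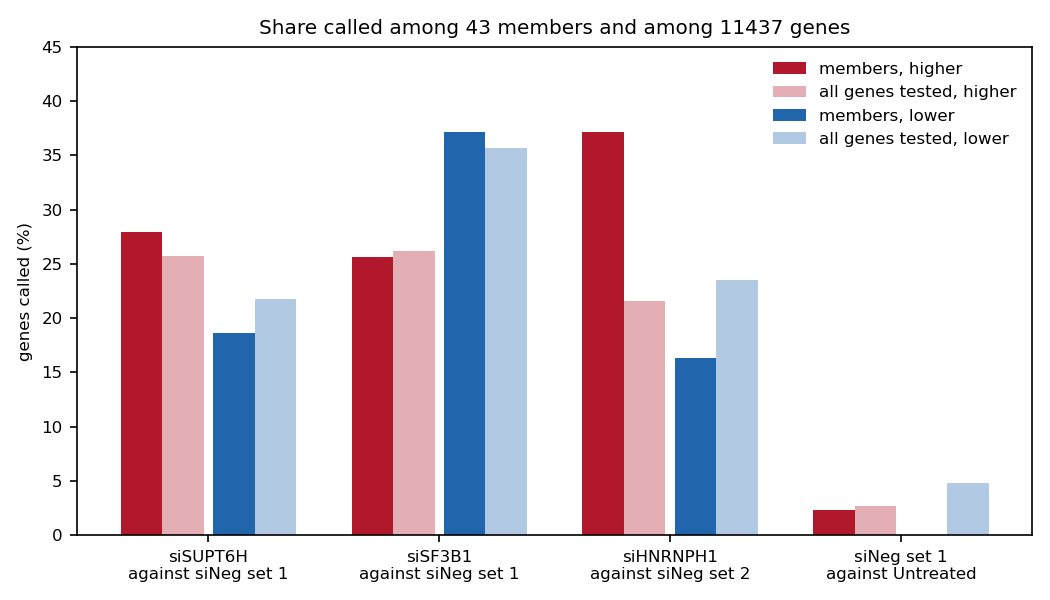
Share of genes called (%) in 4 comparisons, among the 43 measured interferon response genes (dark bars) and among all 11437 genes (pale bars), split into higher (red) and lower (blue). With siHNRNPH1 37.2% of members were called higher against 21.6% of all genes, and the other pairs of bars lie closer together.

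These counts treat each array as a sample, and 3 siRNAs of a target are only 3 independent reagents. With the siRNA or control set as a random block (consensus correlation 0.451), 6 members were called with siSUPT6H, 11 with siSF3B1 and 11 with siHNRNPH1, against 18%, 35.5% and 14.2% of all genes. The 6 with siSUPT6H were B2M, GBP1, IFI6 and ISG15, which were higher, and IFI35 and ISG20, which were lower. The 11 with siSF3B1 were GBP1, IFI6 and ISG15, which were higher, and IFI35, IFIH1, IRF9, ISG20, MX1, MX2, SP100 and USP18, which were lower. The 11 with siHNRNPH1 were GBP1, GBP2, IFI6, IFIT1, IFIT2, IFIT3, IRF1 and ISG15, which were higher, and DHX58, MX1 and MX2, which were lower. Any other call of a member named below for a whole target against siNeg was lost in that fit. With siSUPT6H against siSF3B1, 21 members were called there, against 52.2% of all genes. The other gene lists are given without this block. With the Untreated arrays in place of siNeg, the calls of IRF1, IFIT5, IFITM2, MX2, USP18 and HLA-E with siSUPT6H were lost. So were those of IFI44L and B2M with siSF3B1 and of DHX58, OAS3, HLA-C and TRIM22 with siHNRNPH1. HLA-E with siSF3B1 and EIF2AK2 with siHNRNPH1 changed sign, and the HLA-E value was not called. The Untreated arrays were not in the siHNRNPH1 run, so the siHNRNPH1 comparisons with them cross the runs. With all 6 siNeg arrays as controls the calls of IRF1 and USP18 with siSUPT6H, OAS1 with siSF3B1 and TRIM22 with siHNRNPH1 were lost. IFITM2 with siSUPT6H and EIF2AK2 with siHNRNPH1 changed sign there. The 6 siNeg arrays come from both runs, so these comparisons cross the runs in part.

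Every siRNA was also compared singly with its siNeg set. With siSUPT6H_A1, 16 members were called (11 higher, 5 lower), against 41.1% of all genes (21.7% higher, 19.4% lower). With siSUPT6H_A3 there were 16 (12 higher, 4 lower), against 43.5% (23.3% higher, 20.1% lower). With siSUPT6H_Q3 there were 18 (10 higher, 8 lower), against 43.8% (24.2% higher, 19.6% lower). The siSF3B1 siRNAs gave 24 with A2 (10 higher, 14 lower), 26 with A3 (10 higher, 16 lower) and 25 with Q3 (10 higher, 15 lower). The background was 57.8% for A2 (24% higher, 33.7% lower), 53.1% for A3 (23.7% higher, 29.4% lower) and 58% for Q3 (24.3% higher, 33.7% lower). For HNRNPH1, A2 gave 22 (16 higher, 6 lower), against 40.9% (19.3% higher, 21.6% lower). A3 gave 21 (16 higher, 5 lower), against 39.6% (19.4% higher, 20.2% lower). Q3 gave 23 (12 higher, 11 lower), against 42% (20.5% higher, 21.5% lower). The share of members called higher was 37.2% with A2, 37.2% with A3 and 27.9% with Q3. The share called lower was 14% with A2 and 11.6% with A3, below the background, but 25.6% with Q3, above it.

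All 3 siRNAs of a target were called the same way for 10 members with SUPT6H (23.6% of all genes), 17 with SF3B1 (42.8%) and 13 with HNRNPH1 (19.4%). With HNRNPH1 9 of the 13 were higher, and 9.43% of all genes were. With all 3 targets 4 members were called higher (IFI6, IFITM2, GBP1 and ISG15, 5.37% of all genes) and 3 lower (IFI35, MX2 and USP18, 8.21%). TLR3, IRF2, PSMB9, PML and TRIM21 were called with none of the 3 targets, as were 17.4% of all genes. The map of members by siRNA shows the mixture within each role.

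**Figure D2:**
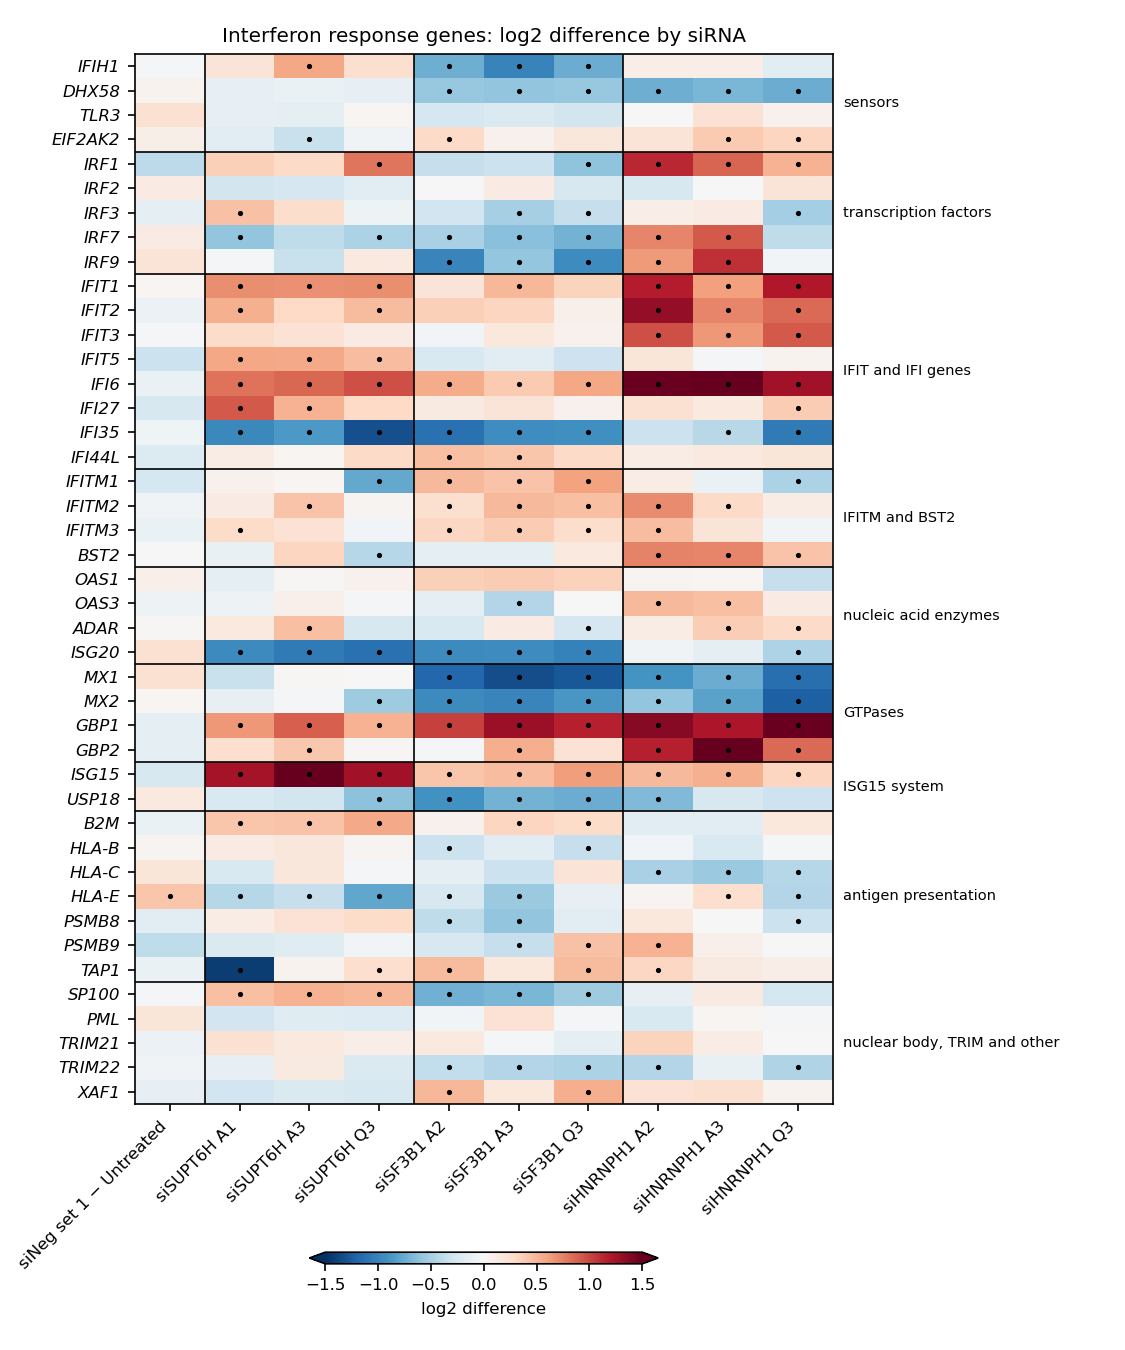
Log2 difference of each of the 43 measured members (rows, grouped by role) for siNeg set 1 against Untreated (first column) and for each siRNA against the siNeg set of its own run. Red is higher, blue is lower, colours saturate beyond the ends of the scale, and a dot marks an adjusted p below 0.05. IFI6, GBP1 and ISG15 are red and dotted with all 9 siRNAs.

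IFI6, a mitochondrial antiviral protein induced by type I interferon, was higher with every siRNA. Its log2 intensity was 8.22, 8.14 and 8.31 on the arrays of siNeg set 1 and 7.95, 8.31 and 8.29 on those of set 2. With siSUPT6H the 9 arrays ran from 9.0 to 9.20 (median 9.06), and with siSF3B1 from 8.52 to 8.96 (median 8.74). With siHNRNPH1 they ran from 9.42 to 9.87 (median 9.66). No silenced array overlapped its controls, and the siHNRNPH1 arrays lay above all others. The differences were 0.88 ± 0.08 (SE) with siSUPT6H, 0.51 ± 0.08 with siSF3B1 and 1.44 ± 0.08 with siHNRNPH1 (9 arrays against 3, adjusted p = 1.5e-14, 6.46e-08 and 4.47e-23). The change with siHNRNPH1 exceeded that with siSUPT6H by 0.56 (adjusted p = 4.01e-05) and that with siSF3B1 by 0.94 (adjusted p = 1.25e-10). A second IFI6 probe was higher by 0.80, 0.74 and 0.85, values closer to each other than those of the brighter probe.

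ISG15, a ubiquitin-like protein that is conjugated to other proteins in the response, rose most with siSUPT6H. Its arrays read 8.59, 8.64 and 8.57 in siNeg set 1 and 9.80 to 10.27 with siSUPT6H (median 9.90). With siSF3B1 they read 8.93 to 9.33 (median 9.12). In the other run siNeg set 2 read 8.97, 9.27 and 9.04 and siHNRNPH1 9.34 to 9.78 (median 9.53). All silenced arrays lay above the controls of their run, although the siNeg sets themselves differed by 0.48. The differences were 1.36 ± 0.08, 0.50 ± 0.08 and 0.45 ± 0.08 (adjusted p = 1.21e-21, 9.28e-08 and 2.01e-06). ISG15 was higher with siSUPT6H than with siSF3B1 by 0.86 (adjusted p = 1.43e-20). USP18, the protease that removes ISG15 from proteins and dampens receptor signalling, went the other way: -0.37 ± 0.13 with siSUPT6H, -0.79 ± 0.13 with siSF3B1 and -0.41 ± 0.13 with siHNRNPH1, all called. The first call ended without siNeg set 1 replicate 1 (-0.27, adjusted p = 0.157). USP18 was detected on 3 of 9 siSF3B1 arrays and 2 of 9 siHNRNPH1 arrays, so its values there lie near the background.

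GBP1, a guanylate-binding GTPase induced above all by interferon gamma, was higher with all 9 siRNAs. The siNeg arrays read 5.32, 5.36 and 5.38 in set 1 and 5.0, 5.17 and 4.82 in set 2. The silenced arrays read 5.58 to 6.34 with siSUPT6H, 6.29 to 6.86 with siSF3B1 and 6.03 to 6.52 with siHNRNPH1, with no overlap with either siNeg set. The differences were 0.69 ± 0.12, 1.16 ± 0.12 and 1.35 ± 0.12 (adjusted p = 4.02e-06, 5.18e-12 and 8.91e-14), and a second probe gave 0.53, 0.71 and 1.1. GBP2, its relative, was not detected on any siNeg array and was detected on all 9 siHNRNPH1 arrays, where it was at least 2.15-fold higher (adjusted p = 1.39e-13). This bound sets the mean of the bright group against the higher of the detection floor and the dim probe's own signal, array by array. With siSUPT6H and siSF3B1 GBP2 was detected on 2 and 1 of 9 arrays and was not called.

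The IFIT genes encode proteins that bind viral RNA and restrain its translation. With siHNRNPH1 3 of the 4 measured were called higher, beside 21.6% of all genes. IFIT1 arrays read 4.58, 4.74 and 5.12 in siNeg set 2 and 5.11 to 6.17 with siHNRNPH1 (median 5.89), so that 1 siHNRNPH1_A3 array lay within the control range. The differences with siHNRNPH1 were 1.00 ± 0.16 for IFIT1, 0.97 ± 0.13 for IFIT2 and 0.85 ± 0.13 for IFIT3 (adjusted p = 5.2e-07, 1.25e-08 and 2.79e-07). The 2 other probes of IFIT3 gave 0.52 and 0.57. With siSUPT6H IFIT1 was higher by 0.70 ± 0.16, IFIT5 by 0.54 ± 0.14 and IFIT2 by 0.44 ± 0.13, and IFIT3 was not called (0.20 ± 0.13). With siSF3B1 none of the 4 was called, beside 61.9% of all genes, and IFIT1 stood at 0.34 ± 0.16 (adjusted p = 0.0552). IFIT5 was detected on 0 of 9 siSF3B1 arrays and on all 9 siSUPT6H arrays, where it was at least 1.34-fold higher than with siSF3B1 (adjusted p = 4.86e-10). The call of IFIT2 with siSUPT6H ended without siNeg set 1 replicate 1 (0.34, adjusted p = 0.0699).

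**Figure D3:**
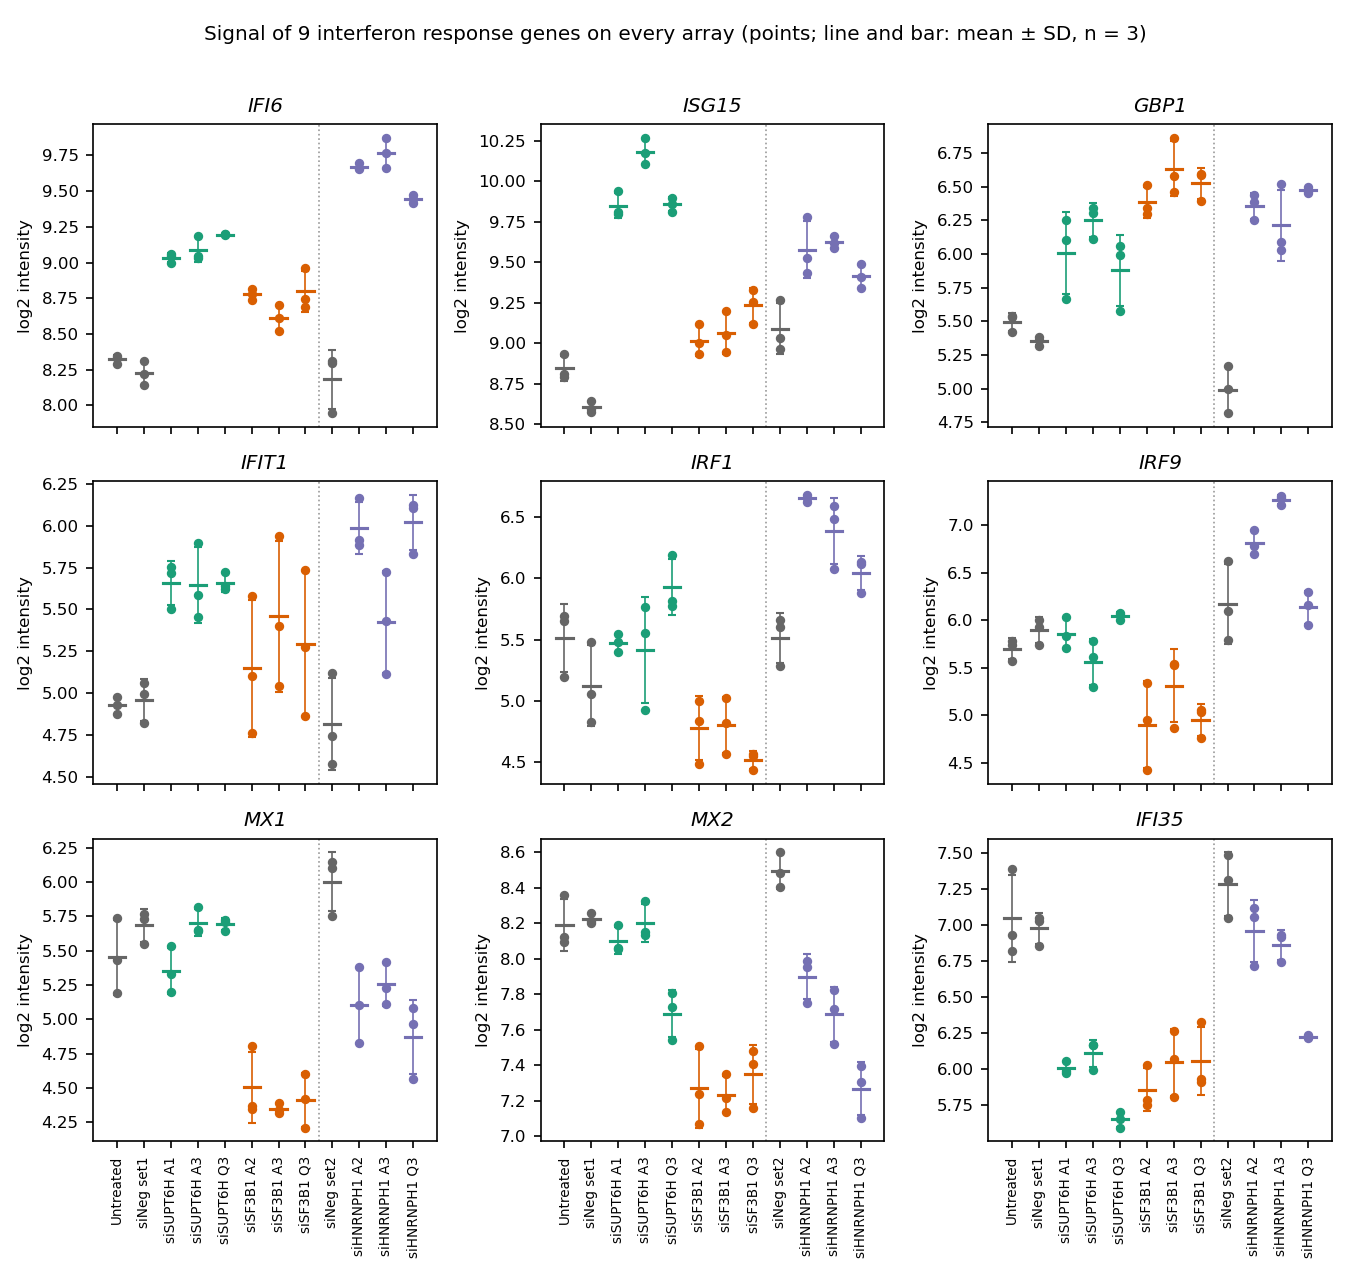
Normalized log2 intensity of 9 members on every array (points), with the mean and SD of each group of 3, in the 2 runs (split by the dotted line); each panel has its own scale. IFI6, ISG15 and GBP1 lie above the siNeg arrays of their run with all siRNAs, MX1 and MX2 lie below with siSF3B1 and siHNRNPH1, and IRF1 and IRF9 are low with siSF3B1.

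The remaining IFI genes split. IFI35, a leucine zipper protein of the response, was lower with all 3 targets. Its arrays read 6.85, 7.03 and 7.05 in siNeg set 1, 5.60 to 6.17 with siSUPT6H and 5.75 to 6.33 with siSF3B1, without overlap. The differences were -1.05 ± 0.12 and -0.99 ± 0.12 (adjusted p = 7.56e-11 and 1.95e-10). With siHNRNPH1 the difference was -0.60 ± 0.12, of which siHNRNPH1_Q3 gave -1.06, A3 -0.42 and A2 -0.32, the last not called. IFI27 was detected on 0 siNeg arrays and on 4 of 9 siSUPT6H arrays, and was called higher (adjusted p = 0.00015). In all it was detected on 5 of 36 arrays, so it passed the filter only through the siSUPT6H arrays, where it was high. It is counted among the 12 members called higher with siSUPT6H, and its call adds no independent support to that count. IFI44L was detected on 0 arrays of siNeg set 1 and 2 of 9 siSF3B1 arrays, and was called higher (adjusted p = 0.0176). Without siNeg set 1 replicate 3 the IFI44L call ended (adjusted p = 0.086). Both lay near the background, so no fold is given.

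Averaged over the 3 siRNAs of a target, IRF1, IRF7 and IRF9 were lower with siSF3B1 and higher with siHNRNPH1, but IRF7 and IRF9 were not called higher with siHNRNPH1_Q3. With siSF3B1 4 of 5 measured factors were lower and 0 higher, where 35.7% of all genes were lower and 26.2% higher. With siHNRNPH1 3 were higher and 0 lower, where 21.6% of all genes were higher and 23.5% lower. IRF1, itself a target of STAT dimers, read 4.83, 5.48 and 5.06 in siNeg set 1, 4.93 to 6.19 with siSUPT6H and 4.43 to 5.03 with siSF3B1, so both targets overlapped their controls. In the other run it read 5.60, 5.66 and 5.28 in siNeg set 2 and 5.88 to 6.68 with siHNRNPH1, without overlap. The differences were 0.48 ± 0.15 (adjusted p = 0.00512), -0.42 ± 0.15 (adjusted p = 0.0105) and 0.84 ± 0.15 (adjusted p = 3.66e-06). The first was lost without siNeg set 1 replicate 1 (0.34, adjusted p = 0.107), against Untreated (0.09, adjusted p = 0.641) and against all 6 siNeg arrays (0.29, adjusted p = 0.0516), and the second without replicate 2 (-0.24, adjusted p = 0.218). IRF1 was detected on 2 of 3 arrays of siNeg set 1 and on 1 of 9 siSF3B1 arrays. Between siSUPT6H and siSF3B1, where no control array enters, it differed by 0.91 (adjusted p = 3.34e-11).

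IRF9, the DNA-binding partner of the STATs, was lower with siSF3B1 (-0.84 ± 0.15, adjusted p = 1.94e-06) and higher with siHNRNPH1 (0.57 ± 0.15, adjusted p = 0.00121). The changes with these 2 targets differed by 1.40 (adjusted p = 1.02e-07). By siRNA, IRF9 stood at 0.64 with siHNRNPH1_A2, 1.09 with A3 and -0.04 with Q3, the last not called (F test adjusted p = 4.18e-06). The call with siHNRNPH1 was lost without siNeg set 2 replicate 6 (0.38, adjusted p = 0.0669). IRF7, the factor that amplifies interferon genes, was lower with siSUPT6H (-0.48 ± 0.14) and siSF3B1 (-0.61 ± 0.14) and higher on average with siHNRNPH1 (0.43 ± 0.14, adjusted p = 0.0134). It was detected on 2 of 3 arrays of siNeg set 1, 2 of 9 siSUPT6H arrays and 1 of 9 siSF3B1 arrays, so the lower values lie near the background. By siRNA, IRF7 stood at 0.74 with siHNRNPH1_A2, 0.92 with A3 and -0.38 with Q3, the last not called. The call with siSUPT6H ended without siNeg set 1 replicate 2 or 3 (-0.38 in both cases, adjusted p = 0.0667 and 0.0688). The call with siHNRNPH1 ended without siNeg set 2 replicate 4 or 6 (0.33 to 0.38, adjusted p = 0.0731 to 0.118). IRF3 was lower with siSF3B1 (-0.38 ± 0.11), a call that ended without siNeg set 1 replicate 2 (-0.29, adjusted p = 0.0578).

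MX1 and MX2, neighbouring genes for dynamin-like GTPases that block viruses, were lower with siSF3B1 and siHNRNPH1. MX2 arrays read 8.21, 8.26 and 8.20 in siNeg set 1, 7.54 to 8.33 with siSUPT6H and 7.07 to 7.51 with siSF3B1. In the other run they read 8.48, 8.40 and 8.60 in siNeg set 2 and 7.11 to 7.99 with siHNRNPH1. Only siSUPT6H overlapped its controls. The MX2 differences were -0.94 ± 0.09 with siSF3B1 and -0.88 ± 0.09 with siHNRNPH1 (adjusted p = 1.03e-12 and 2.33e-11). With siSUPT6H the difference was -0.22 ± 0.09 (adjusted p = 0.044), and leaving out any of 8 single arrays, all 3 of siNeg set 1 among them, ended this call (-0.23 to -0.20, adjusted p = 0.0608 to 0.132). MX1 was detected on all arrays of siNeg set 1 and on 0 of 9 siSF3B1 arrays, at least 1.5-fold lower (adjusted p = 6.17e-12). With siHNRNPH1 MX1 differed by -0.92 ± 0.13 (adjusted p = 6.99e-08), and with siSUPT6H by -0.10 ± 0.13, which was not called.

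ISG20, a 3′ to 5′ exonuclease, was detected on all 3 arrays of siNeg set 1 and on 0 of 9 arrays with either siSUPT6H or siSF3B1. It was at least 1.77-fold lower with siSUPT6H and at least 1.48-fold lower with siSF3B1 (adjusted p = 1.96e-09 and 5.46e-09). With siHNRNPH1 it was detected on all 9 arrays and not called (-0.22 ± 0.13, adjusted p = 0.168). Its promoter window, printed above, carries the ISRE letters, and their part in these changes was not tested. That window belongs to a start site inside the gene, downstream of its first annotated base (chr15:88635632).

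Among the sensors, IFIH1 (MDA5, a sensor of long double-stranded RNA) was lower with siSF3B1 by -0.83 ± 0.13 (adjusted p = 4.57e-07). With siHNRNPH1 it differed by 0.01 ± 0.13. With siSUPT6H it was higher (0.34 ± 0.13, adjusted p = 0.0328), which ended without siNeg set 1 replicate 3, siSUPT6H_A1 replicate 2 or siSUPT6H_A3 replicate 3 (0.20 to 0.30, adjusted p = 0.0665 to 0.319). DHX58 (LGP2, a regulator of the RNA sensors) was called lower with siSF3B1 (adjusted p = 0.000653), where it was not well above background on any of 9 arrays, so no fold is given. With siHNRNPH1 it was detected on 1 of 9 arrays and differed by -0.72 ± 0.15, and against Untreated by -0.21 (adjusted p = 0.232). EIF2AK2 (PKR, the kinase that halts translation on double-stranded RNA) was higher with siHNRNPH1 (0.31 ± 0.09, adjusted p = 0.00389). That sign changed with the controls, and EIF2AK2 was lower in siNeg set 2 than in set 1 (difference -0.68). Against all 6 siNeg arrays the siHNRNPH1 difference was -0.03 and against Untreated it was -0.29. Both of these controls bring in arrays of the other run, so run and control cannot be told apart.

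Of the 4 measured membrane restriction factors, 3 were called higher and 0 lower with siSF3B1, and likewise with siHNRNPH1, beside 26.2% and 21.6% of all genes called higher. With siSUPT6H 1 was higher and 1 lower. The IFITM proteins block the entry of enveloped viruses, and their probes may pick up RNA of related copies. With siSF3B1 IFITM1, IFITM2 and IFITM3 were higher by 0.50 ± 0.10, 0.39 ± 0.08 and 0.32 ± 0.08. With siHNRNPH1 IFITM2 was higher by 0.37 ± 0.08. IFITM3 was higher by 0.21 ± 0.08 (adjusted p = 0.0368), and leaving out any of 7 single arrays, all 3 of siNeg set 2 among them, ended that call (adjusted p = 0.0536 to 0.211). With siSUPT6H IFITM2 stood at 0.19 ± 0.08 (adjusted p = 0.0357), lost without any of 5 single arrays, siNeg set 1 replicates 1 and 3 among them (adjusted p = 0.0525 to 0.233). Against all 6 siNeg arrays IFITM2 stood at -0.01. BST2 (tetherin, which holds budding virions at the cell surface) was higher with all 3 siHNRNPH1 siRNAs (0.63 ± 0.11, adjusted p = 6.51e-06).

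The OAS enzymes make the second messenger that activates RNase L, and ADAR edits double-stranded RNA. With siHNRNPH1 OAS3 was higher by 0.35 ± 0.13 and ADAR by 0.26 ± 0.09. The other kept probes of ADAR gave 0.20 and 0.05 and were not called (adjusted p = 0.107 and 0.842 over all kept probes). The call of OAS3 ended without siNeg set 2 replicate 4 or 5 (0.31 to 0.37, adjusted p = 0.0507 to 0.102) and that of ADAR without replicate 4 (0.23, adjusted p = 0.0681). The 3 probes of OAS1 disagreed: with siHNRNPH1 the brightest gave -0.09, and the others gave 0.65 and 0.52 (adjusted p = 0.000166 and 0.000212 over all kept probes). With siSF3B1 the brightest gave 0.36 ± 0.14 (adjusted p = 0.0269), which ended without any of 4 single arrays, siNeg set 1 replicates 1 and 3 among them (0.29 to 0.33, adjusted p = 0.0503 to 0.139).

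Antigen presentation members went in both directions. B2M, the light chain of MHC class I, was higher with siSUPT6H (0.47 ± 0.08, adjusted p = 5.84e-07) and with siSF3B1 (0.22 ± 0.08, adjusted p = 0.00907). The second was lost without siNeg set 1 replicate 1 (0.17, adjusted p = 0.0941). Another B2M probe gave 0.31 with siSUPT6H and 0.14 with siSF3B1, the latter not called (adjusted p = 0.00225 and 0.142 over all kept probes). HLA-E, a non-classical class I heavy chain, was lower with siSUPT6H (-0.52 ± 0.09) and siSF3B1 (-0.31 ± 0.09). HLA-E was however also higher in siNeg set 1 than in Untreated cells. Against Untreated neither was called, at -0.10 with siSUPT6H (adjusted p = 0.367) and 0.11 with siSF3B1 (adjusted p = 0.255). HLA-C was lower with siHNRNPH1 (-0.49 ± 0.12, adjusted p = 0.000841), and against Untreated it stood at -0.06 (adjusted p = 0.711). HLA-B was lower with siSF3B1 (-0.28 ± 0.09), which ended without siNeg set 1 replicate 3 (-0.23, adjusted p = 0.0557). Probes of the class I genes can share RNA with near-identical relatives. PSMB8, an immunoproteasome subunit, was lower with siSF3B1 (-0.38 ± 0.10), which ended without siNeg set 1 replicate 2 (-0.25, adjusted p = 0.0688). Its 3 other probes gave -0.35, -0.16 and 0.01.

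SP100, a protein of PML nuclear bodies, was higher with siSUPT6H (0.49 ± 0.14, adjusted p = 0.00217). With siSF3B1 it was detected on 0 of 9 arrays and was at least 1.12-fold lower (adjusted p = 4.22e-05). TRIM22, an antiviral ubiquitin ligase, was detected on all arrays of siNeg set 1 and on 0 of 9 siSF3B1 arrays. It was called lower (adjusted p = 0.00491, and 0.113 without siNeg set 1 replicate 2), and no fold is given because the bound came to less than 1. With siHNRNPH1 it stood at -0.33 ± 0.14 (adjusted p = 0.0385), lost without any of 6 single arrays, all 3 of siNeg set 2 among them (adjusted p = 0.0585 to 0.104). XAF1, a proapoptotic interferon target, was higher with siSF3B1 (0.40 ± 0.12, adjusted p = 0.00335).

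The 3 siRNAs of a target did not always act alike. The F test among them called 13 members with siSUPT6H (35% of all genes), 6 with siSF3B1 (13.2%) and 17 with siHNRNPH1 (41.2%). Without replicate 2 or 3 of siSF3B1_A3, 2 or 3 members were called among the siSF3B1 siRNAs. TAP1, a subunit of the peptide transporter that loads MHC class I, read 7.02, 6.94 and 7.17 with siSUPT6H_A1. It read 8.50, 8.59 and 8.45 with A3 and 8.55, 8.83 and 8.79 with Q3, beside 8.37, 8.55 and 8.48 in siNeg set 1. The fall with siSUPT6H (-0.37 ± 0.09, adjusted p = 0.000241) thus came from the A1 arrays alone: A1 gave -1.42, A3 0.05 and Q3 0.26 (F test adjusted p = 1.17e-19). With siSF3B1 TAP1 was higher (0.37 ± 0.09, adjusted p = 0.000186).

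IFITM1 showed the same kind of split with another siRNA. It read 7.12, 7.27 and 7.34 with siSUPT6H_Q3, 8.10, 8.10 and 8.02 with A1 and 8.23, 8.21 and 7.68 with A3, beside 7.99, 8.05 and 8.0 in siNeg set 1 (F test adjusted p = 4.07e-08). The mean over siSUPT6H siRNAs stood at -0.23 ± 0.10 (adjusted p = 0.047), and leaving out any of 9 single arrays, all 3 of siNeg set 1 among them, ended the call (adjusted p = 0.0509 to 0.137). With siHNRNPH1, IRF7 read 5.96 to 6.57 on the A2 and A3 arrays and 5.06, 4.97 and 5.03 with Q3, beside 5.31, 5.68 and 5.21 in siNeg set 2 (F test adjusted p = 2.69e-08). GBP2 was higher with each of the 3 siRNAs, at least 3.57-fold with A3, 1.86-fold with A2 and 1.5-fold with Q3 (F test adjusted p = 4.28e-09). HLA-E was higher with siHNRNPH1_A3 (0.25) and lower with Q3 (-0.44, F test adjusted p = 1.51e-06). The 6 members in the plot of siRNA differences, IFIT2 among them, were chosen after their values were seen.

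**Figure D4:**
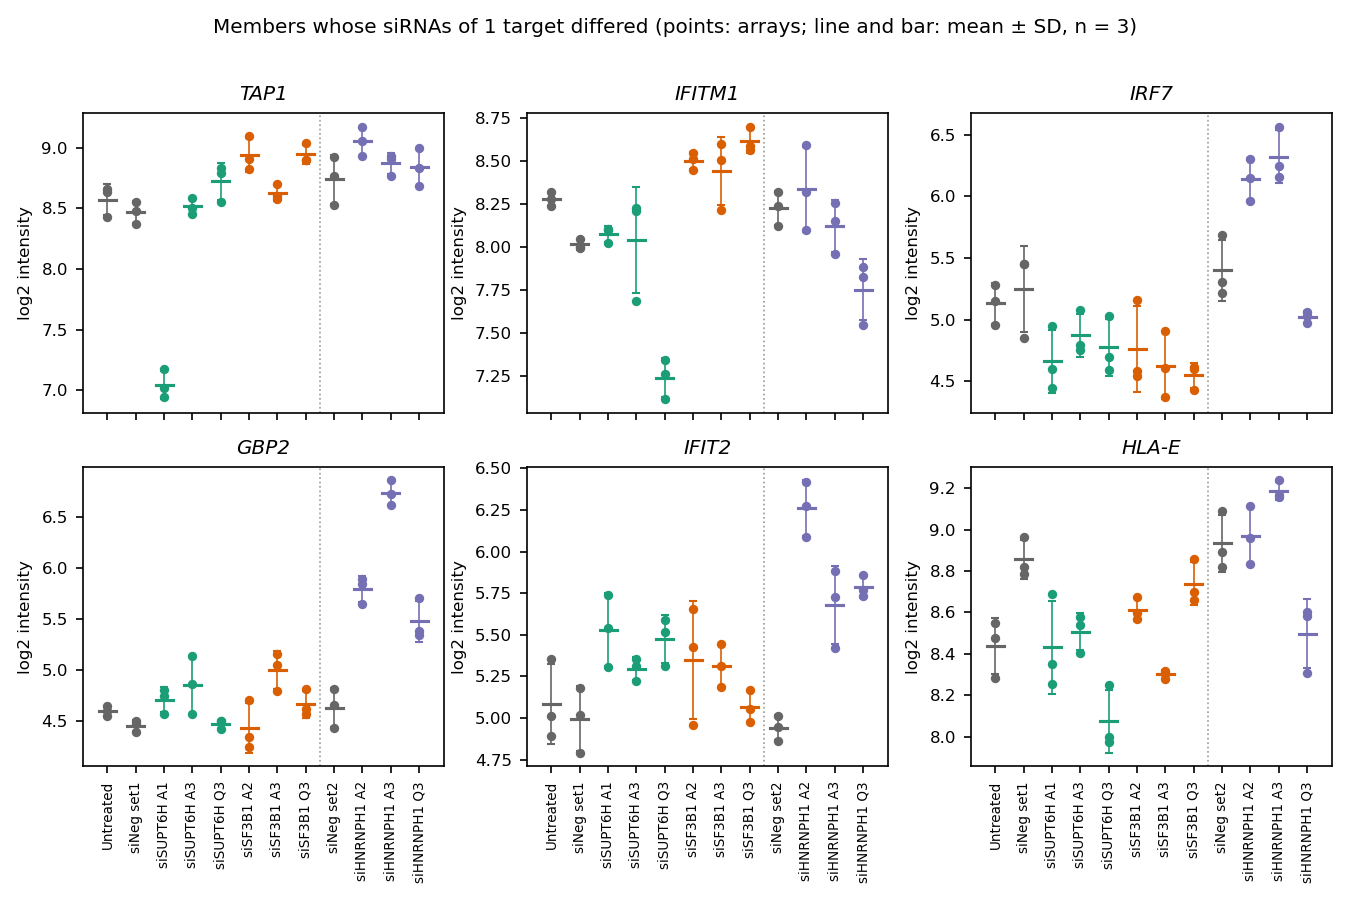
Normalized log2 intensity of 6 members on every array (points), with the mean and SD of each group of 3, split by run at the dotted line; each panel has its own scale. TAP1 is low with siSUPT6H_A1 only, IFITM1 with siSUPT6H_Q3, and IRF7 is high with siHNRNPH1_A2 and A3 but not Q3.

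The comparison of siNeg set 1 with Untreated asks whether delivering an siRNA itself moved these genes. Of 43 members 1 was called, HLA-E, and 7.42% of all genes were called (2.67% higher and 4.76% lower). HLA-E read 8.82, 8.96 and 8.79 in siNeg set 1 and 8.48, 8.55 and 8.28 in Untreated cells, without overlap, a difference of 0.42 (adjusted p = 0.0077). This call ended without siNeg set 1 replicate 2 or Untreated replicate 3 (0.34 to 0.37, adjusted p = 0.061 to 0.0758), which left 0 members called. Same-numbered arrays of these 2 groups varied together, which the test above did not take into account. A fit of their 6 arrays with the replicate number as a block gave the same single call (adjusted p = 0.0111) and 8.96% of all genes. The members' differences ran from -0.39 (IRF1, adjusted p = 0.197) to 0.42, with a median of -0.05. IFI6 differed by -0.10, ISG15 by -0.24 (adjusted p = 0.105) and IFIT1 by 0.03. With 3 arrays against 3, smaller shifts may have been missed. Untreated cells were not part of the siHNRNPH1 run.

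Because siSUPT6H and siSF3B1 shared a run, they were also compared directly, without the control arrays. Of the members 30 were called, 19 higher and 11 lower with siSUPT6H, against 73.3% of all genes (42.7% higher and 30.6% lower). Among those higher with siSUPT6H were IFIH1 (1.17 ± 0.10), detected on 5 of 9 siSF3B1 arrays, IRF1 (0.91), detected on 1 of 9, and ISG15 (0.86). MX1 (at least 1.4-fold) and SP100 (at least 1.57-fold), detected on 0 of 9 siSF3B1 arrays, were higher too. TAP1 (-0.74), IFITM1 (-0.73), XAF1 (-0.65) and GBP1 (-0.47) were higher with siSF3B1. The first 2 of these rest in part on the single siRNAs named above. The changes with siHNRNPH1 and siSUPT6H differed for 20 members, 13 towards higher levels with siHNRNPH1 and 7 towards lower (30.3% of all genes, 13.7% and 16.5%). Those with siHNRNPH1 and siSF3B1 differed for 18, 15 towards higher and 3 towards lower (52.4%, 29.6% and 22.8%). In both cases GBP2, IRF7, IRF9, BST2, IFIT2, IFIT3 and IFI6 changed more towards higher levels with siHNRNPH1. Each of these differences sets 1 run against the other through its own siNeg set.

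Members with and without the ISRE letters in the promoter were both called in either direction. Of the 20 with a match, 8 were higher and 3 lower with siSUPT6H, 8 and 3 with siSF3B1, and 9 and 1 with siHNRNPH1. Of the 11 without a match, 2 were higher and 1 lower with siSUPT6H, 2 and 6 with siSF3B1, and 3 and 2 with siHNRNPH1. MX1, the member with a match that was lower with siHNRNPH1, has its match 12 bases after the start site. Of all genes, 25.7% were higher and 21.8% lower with siSUPT6H, 26.2% and 35.7% with siSF3B1, and 21.6% and 23.5% with siHNRNPH1. The absence of the letters says only that they are not in this window.

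Other genes of the pathway were read from further lists, here and in the next paragraphs. Beside these counts stand 25.7% of all genes higher and 21.8% lower with siSUPT6H, 26.2% and 35.7% with siSF3B1, and 21.6% and 23.5% with siHNRNPH1. The 10 interferon ligand genes, IFNB1 and IFNG among them, had 14 probes, and none was detected on more than 1 array. Of 14 measured receptor and JAK-STAT genes, 4 were higher and 2 lower with siSUPT6H, 5 and 4 with siSF3B1, and 5 and 2 with siHNRNPH1. With siSF3B1 STAT3 differed by -1.66 ± 0.10, IFNAR1, a chain of the type I receptor, by -0.78 ± 0.12 and IL10RB by -0.66 ± 0.09. IFNLR1 and PIAS1 were higher by 0.64 and 0.62. STAT3 was also higher in siNeg set 1 than in Untreated cells (0.72 ± 0.12). With siHNRNPH1 SOCS1, the feedback inhibitor of JAKs, was higher by 1.52 ± 0.12, IFNGR1 by 1.07 ± 0.09 and IFNAR1 by 0.86 ± 0.12, while TYK2 (-0.40) and JAK1 (-0.33) were lower. With siSUPT6H IL10RB was higher by 0.64 ± 0.09 and IFNAR2 differed by -0.52 ± 0.10.

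Of 10 measured sensing adaptors and kinases, 2 were higher and 2 lower with siSUPT6H, 4 and 5 with siSF3B1, and 1 and 3 with siHNRNPH1. MAVS, the mitochondrial adaptor of the RNA sensors, was lower with siSUPT6H (-0.56 ± 0.14) and siSF3B1 (-0.76 ± 0.14). TBK1, the kinase of IRF3, was higher with siSUPT6H (0.80 ± 0.10). STING1, the adaptor for cytosolic DNA, was higher with siHNRNPH1 (0.70 ± 0.09). TRIM25 was lower with all 3 targets (-0.54, -0.36 and -0.76).

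Of 23 other measured interferon-stimulated genes, 5 were higher and 2 lower with siSUPT6H, 0 and 12 with siSF3B1, and 8 and 2 with siHNRNPH1. The median was 0.08, -0.22 and 0.14. With siSF3B1 HELZ2, LAMP3 and ZC3HAV1 led the lower genes (-1.01, -0.97 and -0.93). With siHNRNPH1 UBA7, the activating enzyme for ISG15, was higher by 1.47 ± 0.12, the chemokine CXCL10 by 0.63 ± 0.14 and HERC6 by 0.48 ± 0.12. LAMP3 (-1.58 with siSUPT6H and -2.03 with siHNRNPH1) and the DNA sensor IFI16 (-1.11 and -0.94) were the lower genes under both targets. With siSUPT6H ZNFX1 and SAMD9 were higher by 1.08 and 0.98. Of 13 other antigen presentation genes, 6 were higher and 2 lower with siSUPT6H, 2 and 3 with siSF3B1, and 3 and 3 with siHNRNPH1. PSMB10 was higher with siSUPT6H (1.09 ± 0.08), and TAP2, the partner of TAP1, was lower with all 3 targets (-0.38, -0.57 and -0.98).

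NF-κB targets were read because that factor acts beside the IRFs at many of the same genes. Of 11 measured, 8 were higher and 0 lower with siHNRNPH1 (median 0.92), 3 and 2 with siSUPT6H, and 3 and 2 with siSF3B1. Among all genes 21.6% were higher with siHNRNPH1, 25.7% with siSUPT6H and 26.2% with siSF3B1. With siHNRNPH1 the chemokine CCL2 was higher by 3.31 ± 0.14, IER3 by 3.17 ± 0.12 and NFKBIA, the inhibitor of NF-κB, by 1.77 ± 0.10. With siSUPT6H and siSF3B1 IER3 and NFKBIA were higher too (0.76 and 0.60, 1.13 and 1.01), and CCL2 was lower (-0.79 and -0.43).

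Markers of other cell types moved with all 3 targets as well. Of 6 fibroblast markers 5 were measured, and with siHNRNPH1 4 of these were higher, COL1A1 by 3.67 and PDGFRA by 2.76. Their summed intensity was 1335 to 1419 in siNeg set 2 and 2019 to 5756 with siHNRNPH1. Of 12 blood cell markers only CD14, CD68 and NCAM1 were measured, and all 3 were higher with siHNRNPH1 (0.60, 0.61 and 0.53), with a summed intensity of 413.5 to 485.6 against 286.7 to 332.9. With siSF3B1 CD68 and NCAM1 were higher (0.75 and 0.73) and COL3A1 was lower (-1.60), and the fibroblast sum was 404.1 to 1041 against 1429 to 1784 in siNeg set 1, while the blood cell sum was 432.8 to 505.2 against 284.3 to 299.1. With siSUPT6H COL3A1 and COL1A1 were lower and PDGFRA higher, and the fibroblast sum was 955.3 to 1163. Of 5 epithelial markers 2 were measured, and KRT18 was higher with siSF3B1 (1.12), with a summed intensity of 105.8 to 158.6 against 60.96 to 74.36 in siNeg set 1. The pan-leukocyte marker PTPRC and the T and B cell markers of the list had no kept probe. Of 8 Ewing sarcoma markers 6 were measured, and they were detected in every group. With siSUPT6H 4 of them were higher and 0 lower (LIPI, PAPPA, CD99 and STEAP1, median of the 6 at 0.39), with a summed intensity of 5517 to 7792 against 5069 to 5583 in siNeg set 1. With siSF3B1 the same 4 were higher and PRKCB was lower (-1.20), and with siHNRNPH1 2 were higher and 1 lower. The part of these markers in the members' changes was not tested. All groups were labelled as TC32 cells, and no label names another cell type in the cultures. In RNA from whole cultures, a change in the cells present and a change in RNA per cell cannot be told apart.

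The genes outside the list whose group means were most like those of IFI6 over the 12 groups were H2BC12, TENT5A, EFNA1 and IL6ST (Pearson r 0.979, 0.978, 0.977 and 0.967). For IRF1 they were PDGFRB, CREB3L2, C1orf21 and PAPSS2 (r 0.987, 0.973, 0.969 and 0.968). These are descriptions over 12 groups that share arrays and runs, chosen among all measured genes.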

How the data were processed

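TC32 RNA was hybridized to 36 Illumina HT-12 arrays. Per the file headers, the first deposited table gives, for 47323 probes on each array, a mean bead intensity without normalization, with a deposited detection p-value for each. The second holds log2 values that the authors normalized, per the submitters' processing notes with GenomeStudio, R 3.0.2 and lumi. The normalization method is not given in the sources used here. Its medians were 6.53 on 24 arrays and 6.44 on 12, which defined the runs. For 36 of 36 arrays the best rank correlation between the tables was that of its own column (at least 0.9997).

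Intensities were background-corrected and quantile-normalized with neqc (detection p-values, offset 16, so that log2 values near 4 are background) of limma 3.58.1 in R 4.3.3. Probes with a detection p below 0.01 on at least 3 arrays were kept (19738). Of all probes 30113 had 1 gene symbol, 8 several and 17202 none in the platform annotation. The brightest probe stood for a gene. A model with 12 groups (24 residual degrees of freedom) was fitted to 11437 genes with lmFit and eBayes with an intensity trend. Tests were two-sided, with Benjamini-Hochberg adjustment over all genes. Alternatives changed the background correction, normalization, filter, controls, block, prior and arrays. The code was tested on simulated data.

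The members and gene lists were chosen with earlier results of these data known. All measured members could be named. From each other list, the 3 called genes with the largest changes each way could be named. Same-numbered arrays of siNeg set 1 and Untreated correlated at 0.204, 0.272 and 0.147 after group means were removed. The main test of these groups did not pair them. An added fit took them as paired by number, a link that comes from the data and not from the labels. In every other comparison at least 1 pair correlated below 0.1, and numbers were not treated as pairs outside the replicate block among the alternatives. The nearest to the limit was siSUPT6H_A1 with siNeg set 1, at 0.075, 0.110 and 0.101.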

Additional observations from a re-analysis of the deposited data

How the results depend on the processing

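Array number and the siRNA as the unit set the main limits. With the siRNA or control set as a random block, 6 members were called with siSUPT6H, 11 with siSF3B1 and 11 with siHNRNPH1, in place of 20, 27 and 23. All-gene counts fell from 5424, 7082 and 5160 to 2054, 4063 and 1622. Of 100 called member values 51 lost the call there and 0 reversed. Leaving out 1 array gave 14 to 21 members for siSUPT6H, 23 to 28 for siSF3B1, 19 to 23 for siHNRNPH1, 29 to 32 for siSUPT6H against siSF3B1 and 0 to 1 for siNeg against Untreated. For the F tests it gave 10 to 13, 2 to 6 and 16 to 18 (siSUPT6H, siSF3B1, siHNRNPH1). Of 101 member calls 24 ended without some single array. The choice of control ended some calls and turned some signs. Against Untreated 12 of 70 called member values lost the call with the sign kept, and 2 more changed sign. Against all 6 siNeg arrays 4 of 71 lost it with the sign kept, and 2 more changed sign. For siSUPT6H against Untreated IFIT5 stood at 0.22, IFITM2 at 0.15, MX2 at -0.19 and USP18 at -0.23. With siSF3B1 B2M stood at 0.12, and with siHNRNPH1 OAS3 at 0.15 and TRIM22 at -0.10. Against all 6 siNeg arrays USP18 stood at -0.05 with siSUPT6H, OAS1 at 0.17 with siSF3B1 and TRIM22 at -0.19 with siHNRNPH1. Against all 6 siNeg arrays IFITM2 stood at -0.0085 with siSUPT6H and EIF2AK2 at -0.032 with siHNRNPH1. Against Untreated, with siHNRNPH1, IFIH1 stood at -0.37, EIF2AK2 at -0.29, OAS1 at 0.36 and HLA-E at 0.45, and with siSF3B1 HLA-E stood at 0.11. The cause was not tested. Replicate numbers as a block gave 20, 28, 23, 1 and 30 members, and 13, 6 and 18 in the F tests, and ended no member's call, while IFIT1 with siSF3B1 came under the limit (0.34, adjusted p = 0.0405). In 10 of 30 pairs the best match was the array of the same number. These included all 3 of siNeg set 1 and Untreated and all 3 of siSUPT6H_A1 and siNeg set 1. A fit of the 6 siNeg set 1 and Untreated arrays alone, chosen after the data were seen, gave 1 member and 440 calls over all genes. With the replicate block it gave 1 member and 1025 calls. For all genes, siNeg against Untreated gave 849 calls, 1745 with all 6 siNeg arrays, and 506 or 515 without siNeg set 1 replicate 1 or 2. Members near the background, such as DHX58, IFI27, IFI44L, TLR3 and IRF2, are limited by signal.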

Other observations

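The 2 siNeg sets, which carry the same treatment label, were not alike for all members. Set 2 was higher than set 1 for 7 members and lower for 2, against 36.4% of all genes called. PSMB9 was higher in set 2 by 0.57, ISG15 by 0.48, DHX58 by 0.46, TRIM21 by 0.43, PSMB8 by 0.41, IFITM2 by 0.41 and TAP1 by 0.27. EIF2AK2 differed by -0.68 and USP18 by -0.64. These differences are as large as several of the changes after silencing. Run and set cannot be told apart.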
